A study of Mus musculus with 8 samples.

Results

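The genes described here are 10 components of the Smad pathway, the route by which TGFbeta receptors reach the nucleus, and inhibitors that act back on it. They are the receptor genes Tgfbr1 and Tgfbr2, the signal-carrying Smad genes Smad2, Smad3 and Smad4, the inhibitory Smad genes Smad6 and Smad7, the nuclear co-repressor genes Ski and Skil, and Pmepa1. Members were taken by gene symbol from the platform's probe table, keeping probesets with a single symbol. All 10 were found, each with 1 probeset, among 19937 genes in all.

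The cells were NMuMG, a mouse mammary gland epithelial line. They had been stably transfected with a vector holding major satellite sequences, repeats found in tandem beside mouse centromeres, or with a control vector. Total RNA was taken after 8 h of TGFbeta or at 0 h without it, which gave 4 groups of 2 arrays: Major with TGFbeta, Major untreated, Control with TGFbeta and Control untreated. The labels do not say whether a transfected line was a pool or a clone, nor what drives the insert. Nothing in them says that the replicates were separate cultures. The p-values therefore measure only the spread between these arrays that was left after the terms of the model below. Each array title also carried 1 of 2 codes, shared by 1 array of every group, and arrays are called number 1 or 2 by that code.

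TGFbeta binds the type II receptor TGFBR2, which recruits and phosphorylates the type I receptor TGFBR1. Active TGFBR1 phosphorylates SMAD2 and SMAD3, which join the common partner SMAD4 and enter the nucleus to regulate genes. SMAD7, SMAD6, SKI, SKIL (also called SnoN) and PMEPA1 each dampen this route at a different step, and NMuMG cells are widely used to study the epithelial-mesenchymal transition that TGFbeta sets off.

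Promoter sequence from RefSeq (GRCm38.p6) was taken for 5 members, Tgfbr1, Tgfbr2, Ski, Smad3 and Smad6. The promoters of Smad2, Smad4 and Smad7 were left out by their chromosome and not looked at, and Skil and Pmepa1 had no entry. The 250 bases before the gene start are shown for both receptors and for Ski, because the receptors are a pair whose transcripts gave different values below and Ski is a co-repressor whose transcript rose. Capitals mark every CAGAC or GGCGC on either strand, short words that Smad proteins are known to bind.
Tgfbr1, chr4:47352972-47353221, + strand: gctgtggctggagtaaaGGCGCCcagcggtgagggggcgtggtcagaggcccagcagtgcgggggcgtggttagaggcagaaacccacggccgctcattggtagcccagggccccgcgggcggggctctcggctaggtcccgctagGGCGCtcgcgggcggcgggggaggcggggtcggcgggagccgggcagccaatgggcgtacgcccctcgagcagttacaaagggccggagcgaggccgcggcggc
Tgfbr2, chr9:116175364-116175613, - strand: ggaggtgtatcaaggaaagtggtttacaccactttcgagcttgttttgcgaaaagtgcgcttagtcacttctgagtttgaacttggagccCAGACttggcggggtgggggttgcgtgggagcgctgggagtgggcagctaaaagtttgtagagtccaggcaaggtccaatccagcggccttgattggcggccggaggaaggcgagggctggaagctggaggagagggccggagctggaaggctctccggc
Ski, chr4:155222536-155222785, - strand: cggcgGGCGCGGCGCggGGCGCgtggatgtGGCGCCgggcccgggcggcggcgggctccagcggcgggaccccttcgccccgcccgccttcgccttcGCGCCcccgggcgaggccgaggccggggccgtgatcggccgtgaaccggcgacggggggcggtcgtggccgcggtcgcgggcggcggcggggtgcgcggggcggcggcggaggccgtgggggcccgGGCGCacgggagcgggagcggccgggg

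The Tgfbr1 window held 3 matches to GGCGC, of which 2 overlapped, and 0 to CAGAC. A second Tgfbr1 window in the same table, at chr4:47385966-47386215 and not at the gene start, held 1 match to CAGAC and 0 to GGCGC. In the Ski window there were 7 matches to GGCGC, again with 1 overlapping pair, and 0 to CAGAC, in sequence that was 87.6% G or C. The Tgfbr2 window held 1 match to CAGAC, which began 160 bases before the start, and 0 to GGCGC. No base of these windows lay in both words. Over 32851 promoter windows of this length, 42.2% held CAGAC or its reverse complement GTCTG, and 32.0% held GGCGC or its reverse complement GCGCC. These shares count windows with any match and are not matched for G and C content. They therefore do not show whether 7 or 3 matches to GGCGC are many. The longer word GTCTAGAC, found in 0.167% of windows, was in none of the 3. Among windows not shown, that of Smad3 held 0 matches to CAGAC and 0 to GGCGC. That of Smad6, which was not at the gene start, held 1 to GGCGC and 0 to CAGAC. Neither Smad3 nor Smad6 passed below. A match describes the letters and does not show binding.

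Values are the deposited log2 expression values, so a difference of 1 is a 2-fold change, and levels of different genes are not compared. Array medians were 7.72 to 7.76 for the 4 arrays of number 1 and 7.88 to 7.92 for the 4 of number 2. Differences were fitted with limma over all 8 arrays, with the number of the array as a term, and a gene passed at a Benjamini-Hochberg adjusted p under 0.05 over all 19937 genes. Among epithelial markers, group means lay between 12.79 and 13.00 for Cdh1 (E-cadherin), between 14.29 and 14.36 for Krt8 and between 13.66 and 13.87 for Krt18, with 6.64 to 7.05 for Epcam and 6.07 to 6.10 for the splicing regulator gene Esrp1. Of the other epithelial markers, Krt19 averaged 12.95 with TGFbeta against 13.67 untreated in Major cells and 12.72 against 13.48 in Control cells, and Cldn4 (claudin 4) averaged 10.04 with TGFbeta against 7.79 untreated in Major cells and 10.18 against 7.92 in Control cells. Cldn3 was higher with TGFbeta in both lines, Ocln lower in both, and Cldn7 higher in Major cells only. Of all 10 epithelial markers, 6 had a higher mean with TGFbeta in Major cells and 5 in Control cells. Their summed log2 values, Cldn4 included, were 101.84 to 103.08 with TGFbeta against 100.32 to 100.38 untreated in Major cells. In Control cells they were 102.11 to 102.69 against 99.76 to 101.09. The table gives no detection calls, so the absence of a marker could not be called. Of 8 fibroblast markers, 7 had a higher mean with TGFbeta in Major cells and 6 in Control cells, with summed log2 values of 56.60 to 56.92 with TGFbeta against 54.38 to 55.53 untreated in Major cells. In Control cells these sums were 55.81 to 57.19 with TGFbeta against 53.89 to 55.98 untreated. In Major cells the mean was also higher with TGFbeta for 4 of 5 endothelial, 5 of 6 myoepithelial and basal, and 5 of 5 measured immune markers. In Control cells it was higher for 5 endothelial, 5 myoepithelial and basal, and 3 immune markers. The summed values of the endothelial and of the myoepithelial and basal lists overlapped between treated and untreated arrays in both lines. Those of the immune list overlapped in Control cells. In Major cells the immune sums did not overlap, with 33.29 to 34.20 with TGFbeta against 32.64 to 33.28 untreated. The part of these markers in the results below was not tested. In RNA from whole cultures, fewer cells of a type and less RNA per cell cannot be told apart.

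The first question was how the pathway's own genes respond to 8 h of TGFbeta. No group was held for 8 h without TGFbeta. In every difference called a response, rise or fall here, TGFbeta and the difference in time therefore cannot be told apart. In both lines the same 5 of the 10 members passed and all 5 rose: Tgfbr1, Smad7, Ski, Skil and Pmepa1. Across the array 14.6% of genes passed in Control cells (6.92% higher, 7.63% lower) and 15.3% in Major cells (6.89% higher, 8.38% lower). The members' median difference was 0.57 in Major cells and 0.57 in Control cells, beside 0.03 and 0.01 over all genes. Because the members were chosen with earlier results of these data known, these figures are not a test of the pathway. Tgfbr2, Smad2, Smad3, Smad4 and Smad6 did not pass in either line. The responses in the 2 lines use different arrays, but a single fit to all 8 arrays gave both. That fit shares its estimate of the spread and its number term between the lines, so a member has the same SE in each. The SEs, intervals and adjusted p of the 2 lines are therefore not independent. The comparisons between vectors further on also share these arrays.

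**Figure D1:**
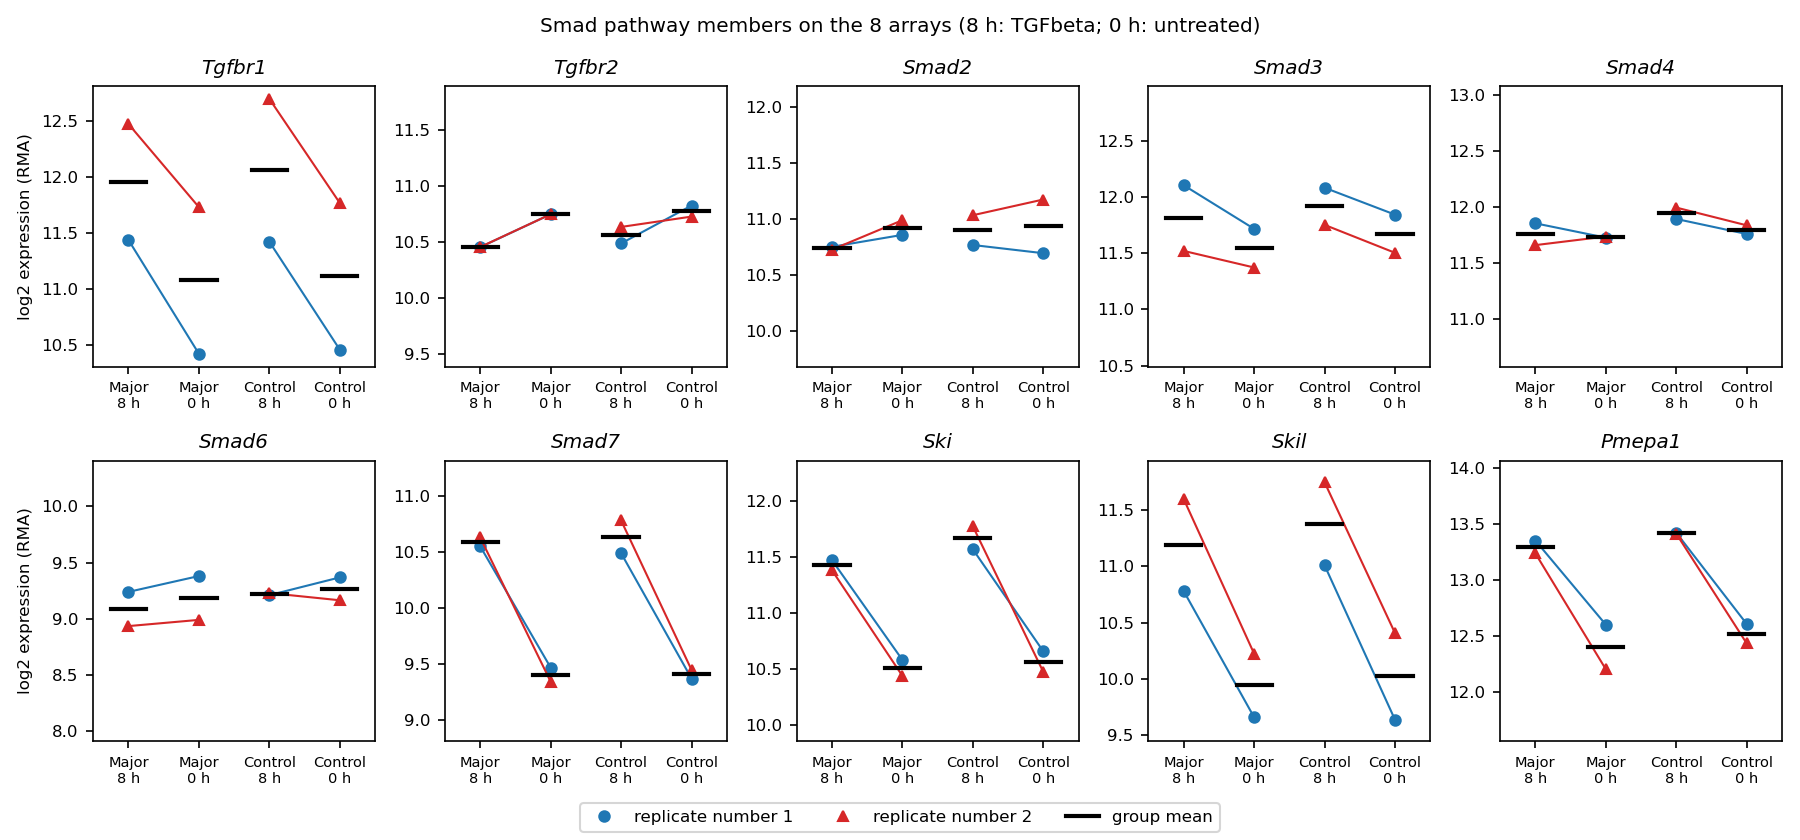
Log2 expression (RMA scale) of each member on the 8 arrays, with Major 8 h, Major 0 h, Control 8 h and Control 0 h from left to right in each panel; every vertical axis spans the same number of log2 units. Circles and triangles are replicate numbers 1 and 2, lines join arrays of the same number within a vector, and bars are group means: the lines of Tgfbr1, Smad7, Ski, Skil and Pmepa1 drop steeply toward 0 h in both numbers, while those of Tgfbr1 and Skil also sit far apart by number.

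Of the receptors, Tgfbr1, which encodes the kinase that phosphorylates SMAD2 and SMAD3, rose in both lines. Tgfbr1 had log2 values of 11.44 (number 1) and 12.47 (number 2) in Major cells with TGFbeta, against 10.42 and 11.73 untreated. In Control cells Tgfbr1 had 11.42 and 12.69 with TGFbeta, against 10.46 and 11.77 untreated. The groups overlapped within each line, because number 2 arrays were 1.03 to 1.31 above number 1 arrays of the same group, yet each TGFbeta array was above the untreated array of its own number. The log2 difference was 0.88 ± 0.10 in Major cells (SE, n = 2 arrays per group, limma adjusted p = 0.000453), a 1.84-fold rise (95% interval 1.58 to 2.14). In Control cells it was 0.94 ± 0.10 (limma adjusted p = 0.000288), or 1.92-fold (1.65 to 2.24). By number, the differences were 1.01 and 0.74 in Major cells and 0.96 and 0.93 in Control cells. A mean gap between numbers as large as that of Tgfbr1, in either direction, was seen for 0.933% of all genes. When the number was left out of the model the SE of Tgfbr1 was 0.69 and it did not pass (limma adjusted p = 0.897 in Major cells and 0.974 in Control cells).

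Tgfbr2, which encodes the ligand-binding type II receptor, had 10.46 and 10.46 in Major cells with TGFbeta, against 10.75 and 10.75 untreated. In Control cells Tgfbr2 had 10.49 and 10.64 with TGFbeta, against 10.83 and 10.73 untreated. All 4 TGFbeta arrays lay below all 4 untreated arrays, although the differences did not pass. They were -0.29 ± 0.09 in Major cells (limma adjusted p = 0.0597, 95% interval -0.50 to -0.09) and -0.21 ± 0.09 in Control cells (limma adjusted p = 0.171, interval -0.42 to -0.01). In Major cells the call depended on the setting, with a limma adjusted p = 0.0454 when dim genes were left out and 0.0478 with an intensity trend and robust eBayes settings.

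Of the signal-carrying Smads, none passed. Smad3, the DNA-binding Smad activated by TGFBR1, had 12.11 and 11.52 in Major cells with TGFbeta, against 11.72 and 11.37 untreated. In Control cells Smad3 had 12.08 and 11.75 with TGFbeta, against 11.84 and 11.50 untreated. Each TGFbeta array was above the untreated array of its number, by 0.39 and 0.15 in Major cells and by 0.24 and 0.25 in Control cells. The fitted differences were 0.27 ± 0.09 in Major cells (limma adjusted p = 0.094, 95% interval 0.05 to 0.48) and 0.24 ± 0.09 in Control cells (limma adjusted p = 0.137, interval 0.03 to 0.46). Smad3 was the member whose number 1 arrays were above its number 2 arrays by the most, the gap of number 2 minus number 1 being -0.59 to -0.33.

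Smad2, the other Smad that TGFBR1 phosphorylates, ran from 10.69 to 11.17 over the 8 arrays. Its difference with TGFbeta was -0.18 ± 0.12 in Major cells (limma adjusted p = 0.35, 95% interval -0.45 to 0.08) and -0.03 ± 0.12 in Control cells (limma adjusted p = 0.914, interval -0.30 to 0.23). Smad4, the common partner, ran from 11.66 to 11.99. For Smad4 the difference was 0.03 ± 0.10 in Major cells (limma adjusted p = 0.896, interval -0.19 to 0.24) and 0.15 ± 0.10 in Control cells (limma adjusted p = 0.416, interval -0.07 to 0.37). All 4 of these intervals include 0 and none reaches 0.5 in either direction.

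The inhibitory Smads gave unlike values. Smad7, which blocks TGFBR1 and brings ubiquitin ligases to it, had 10.55 and 10.63 in Major cells with TGFbeta, against 9.47 and 9.35 untreated. In Control cells Smad7 had 10.49 and 10.78 with TGFbeta, against 9.37 and 9.45 untreated. All 4 TGFbeta arrays were above all 4 untreated ones. Treated and untreated arrays did not overlap for 6 of the 10 members in Major cells, where that was so for 34.0% of all genes (20.3% with TGFbeta higher), and for 6 in Control cells, where it was so for 29.3% (15.1% higher). In Major cells Smad7, Ski, Skil and Pmepa1 were higher with TGFbeta, and Tgfbr2 and Smad2 lower. In Control cells Smad4, Smad7, Ski, Skil and Pmepa1 were higher, and Tgfbr2 lower. Smad7 rose 2.27-fold in Major cells (95% interval 1.92 to 2.68, log2 difference 1.18 ± 0.11, limma adjusted p = 0.000165) and 2.34-fold in Control cells (1.98 to 2.76, 1.22 ± 0.11, limma adjusted p = 0.000123).

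Smad6, the inhibitory Smad best known for restraining BMP signals, had 9.24 and 8.93 in Major cells with TGFbeta, against 9.38 and 8.99 untreated. In Control cells Smad6 had 9.21 and 9.23 with TGFbeta, against 9.37 and 9.16 untreated. Treated and untreated arrays of Smad6 overlapped in both lines. Its differences were -0.10 ± 0.11 (limma adjusted p = 0.603, 95% interval -0.34 to 0.14) in Major cells and -0.05 ± 0.11 (limma adjusted p = 0.856, interval -0.29 to 0.20) in Control cells. These intervals do not meet those of Smad7 on the log2 scale, which were 0.94 to 1.42 in Major cells and 0.98 to 1.46 in Control cells, and the difference between the 2 genes was not tested.

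Both co-repressor genes rose. Skil, whose protein SnoN holds Smad target genes silent and is degraded early after TGFbeta, had the largest fitted rise of the 10 members in each line, with an interval that overlapped that of Smad7. Skil had 10.78 and 11.60 in Major cells with TGFbeta, against 9.66 and 10.22 untreated. In Control cells Skil had 11.01 and 11.75 with TGFbeta, against 9.63 and 10.41 untreated. The groups did not overlap, and number 2 arrays were 0.57 to 0.82 above number 1 arrays of the same group. The rise was 2.38-fold in Major cells (95% interval 2.06 to 2.75, log2 difference 1.25 ± 0.09, limma adjusted p = 5.49e-05) and 2.57-fold in Control cells (2.22 to 2.96, 1.36 ± 0.09, limma adjusted p = 3.83e-05). Without the number in the model Skil did not pass, with an SE of 0.42 (limma adjusted p = 0.341 in Major cells and 0.283 in Control cells).

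Ski, the founding member of this co-repressor family, had 11.47 and 11.38 in Major cells with TGFbeta, against 10.58 and 10.44 untreated. In Control cells Ski had 11.57 and 11.77 with TGFbeta, against 10.66 and 10.47 untreated. All 4 TGFbeta arrays were above every untreated array. Ski rose 1.89-fold in Major cells (95% interval 1.59 to 2.23, log2 difference 0.91 ± 0.11, limma adjusted p = 0.000615) and 2.15-fold in Control cells (1.82 to 2.54, 1.10 ± 0.11, limma adjusted p = 0.000229).

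Pmepa1 encodes a membrane protein (also called TMEPAI) that binds SMAD2 and SMAD3 and keeps them from the receptor. Pmepa1 had 13.35 and 13.24 in Major cells with TGFbeta, against 12.60 and 12.20 untreated. In Control cells Pmepa1 had 13.42 and 13.41 with TGFbeta, against 12.61 and 12.43 untreated. Every TGFbeta array was above every untreated array. The rise was 1.85-fold in Major cells (95% interval 1.58 to 2.18, log2 difference 0.89 ± 0.10, limma adjusted p = 0.000604) and 1.86-fold in Control cells (1.58 to 2.19, 0.89 ± 0.10, limma adjusted p = 0.000571). Without the number in the model it did not pass (limma adjusted p = 0.0705 in Major cells and 0.0688 in Control cells). In that model Smad7 and Ski were the 2 members that passed in each line, where 1.09% of all genes passed in Major cells (0.682% higher) and 1.07% in Control cells (0.707% higher).

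**Figure D2:**
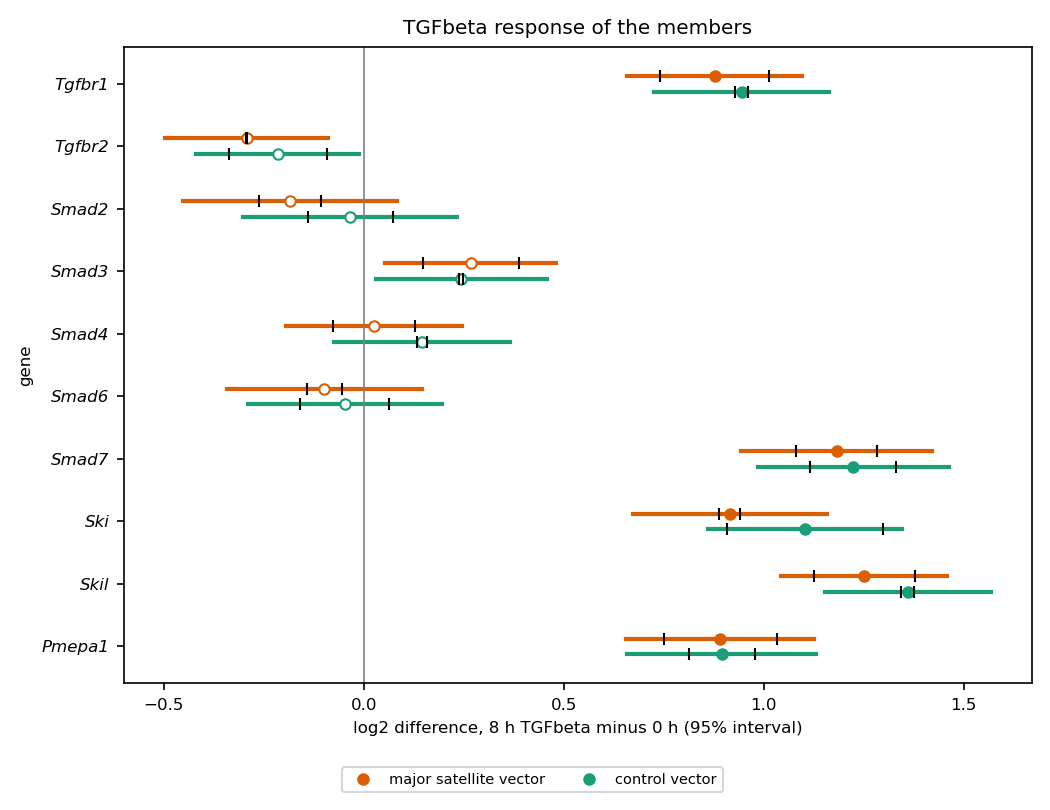
Log2 difference of 8 h TGFbeta minus 0 h for each member, with Major cells (orange, upper line of each pair) above Control cells (green). Circles are limma estimates, filled where the adjusted p was under 0.05, lines are 95% intervals and ticks are the differences within numbers 1 and 2: the filled estimates of Tgfbr1, Smad7, Ski, Skil and Pmepa1 lie between 0.88 and 1.36 and the open ones between -0.29 and 0.27.

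The second question was whether the major satellite vector changed these genes. No member passed in Major against Control cells with TGFbeta, where 0.0301% of all genes passed, nor untreated, where 0.0301% passed. With TGFbeta, the members' differences ran from -0.24 to -0.05 with adjusted p of 0.752 or more, and 1 of 10, Ski, had an unadjusted p under 0.05. Untreated, they ran from -0.13 to -0.003, and 0 of 10 had an unadjusted p under 0.05. All 10 estimates were below 0 at both times (though not for Smad2 and Smad7 untreated after median centring, nor for 8 members untreated and 4 with TGFbeta when single arrays were left out), with a median of -0.13 with TGFbeta and -0.06 untreated, beside medians of 0.01 and -0.001 over all genes. With TGFbeta, the differences within number 2 ran from -0.39 (Ski) to -0.15 (Skil), all below 0. Within number 1 they ran from -0.23 (Skil) to 0.06 (Smad7), and those of Tgfbr1, Smad3, Smad6 and Smad7 were above 0. Within both numbers, 6 members were lower in Major cells with TGFbeta and 5 untreated, and none was higher in both numbers at either time. Over all genes, 25.1% were lower in both numbers with TGFbeta and 25.6% untreated.

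Ski gave the largest of these differences. With TGFbeta it had 11.47 and 11.38 in Major cells, against 11.57 and 11.77 in Control cells, so that the groups did not overlap. Groups without overlap at this time were seen for 16.9% of genes in either direction and for 5 of the 10 members (Tgfbr2, Smad2, Smad4, Ski and Pmepa1, chosen after their values were seen). Untreated, this was so for 13.2% of genes and for 1 member, Smad4. The Ski difference was -0.24 ± 0.11 (limma adjusted p = 0.752, 95% interval -0.49 to -0.0007), and within the numbers it was -0.10 and -0.39. Skil followed with -0.19 ± 0.09 (limma adjusted p = 0.756, interval -0.40 to 0.02) and Smad4 with -0.19 ± 0.10 (limma adjusted p = 0.76, interval -0.41 to 0.03). For Smad7 the difference with TGFbeta was -0.05 ± 0.11 (limma adjusted p = 0.939, interval -0.28 to 0.19).

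Over both times, with 4 arrays a side, the Major minus Control difference again passed for none of the 10 members, where 0.0853% of all genes passed. It ran from -0.15 ± 0.08 for Ski (limma adjusted p = 0.874) to -0.02 ± 0.07 for Smad7 (limma adjusted p = 0.976). Over the 10 members the 95% intervals of this difference reached at most a fold of 0.80 downward and 1.11 upward.

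The last comparison set the TGFbeta response in Major cells against that in Control cells. No member passed, and neither did any gene of the array (0.0% by limma at an adjusted p under 0.05, with 658 genes at an unadjusted p under 0.05). Without the number 1 array of Major cells with TGFbeta, 17 genes passed here and 107 passed in Major against Control cells with TGFbeta, with 0 members among either. The difference of responses was -0.19 ± 0.15 for Ski (95% interval -0.53 to 0.16), -0.11 ± 0.13 for Skil (-0.40 to 0.18) and -0.07 ± 0.14 for Tgfbr1 (-0.38 to 0.24). It was -0.04 ± 0.15 for Smad7 (-0.38 to 0.30) and -0.004 ± 0.15 for Pmepa1 (-0.34 to 0.33). For the 5 members that rose, a response up to 0.53 log2 units weaker in Major cells therefore lies within the intervals, and a p above the threshold does not show that the responses were equal. By group means the order from low to high was the same for Tgfbr1, Smad3, Smad7, Ski, Skil and Pmepa1: Major untreated, Control untreated, Major with TGFbeta, Control with TGFbeta. Ski and Pmepa1 kept this order within both numbers, while Tgfbr1, Smad3, Smad7 and Skil kept it within number 2 and not within number 1. In that order the 2 untreated groups did not differ beyond their intervals, nor did the 2 TGFbeta groups, apart from the Ski interval above.

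**Figure D3:**
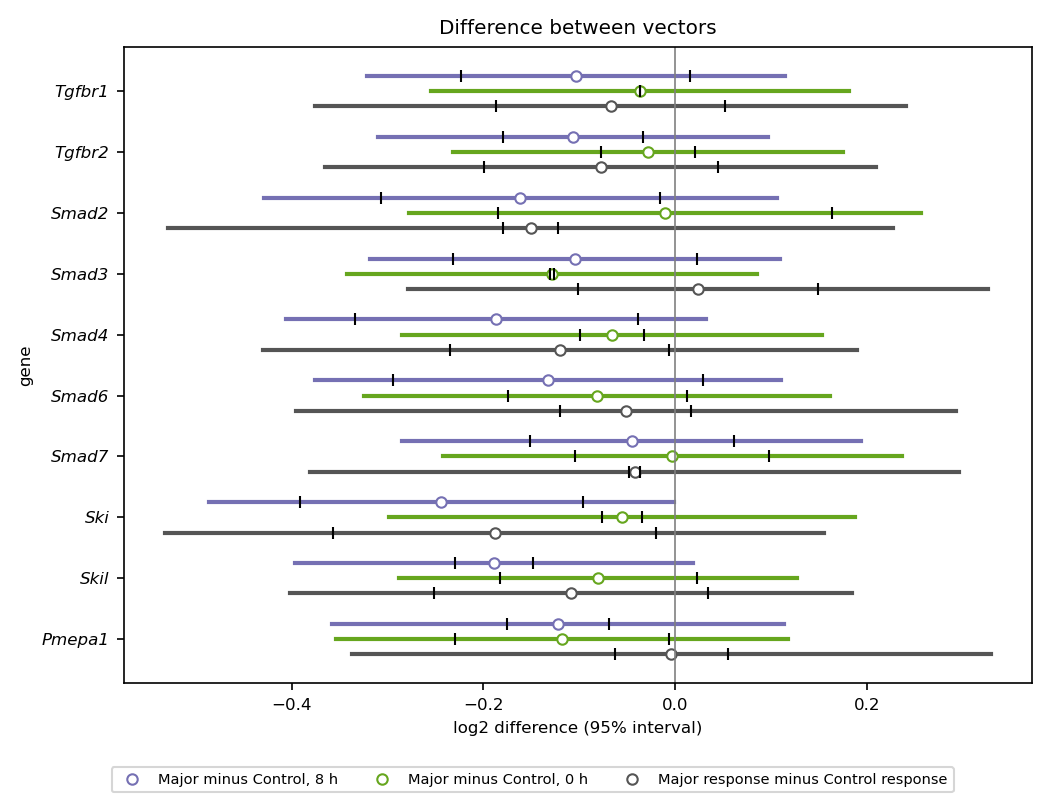
Log2 difference of Major minus Control with TGFbeta (purple), untreated (green) and, as the difference of the TGFbeta responses, Major minus Control (grey), for each member from top to bottom. Circles are limma estimates, open because none had an adjusted p under 0.05, lines are 95% intervals and ticks are the values within numbers 1 and 2: the estimates at either time lie between -0.24 and -0.003, and every interval but that of Ski with TGFbeta includes 0.

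For each member that rose in both lines, the 3 genes with the most alike pattern over the 8 arrays were found by the root mean square difference of log2 values, after the mean of each gene within each number had been subtracted. For Smad7, whose centred values ran over 1.44 log2 units, these were Atp10d (0.050), the forkhead factor gene Foxq1 (0.051) and Lamb3 (0.056), a laminin subunit gene. Nearest to Ski were Igsf11 (0.034), Ctse (0.050) and Mdga1 (0.051), and nearest to Skil Cxxc5 (0.041), Nupr1 (0.052) and Rhoq (0.057). Pmepa1 lay nearest to Smtn (0.037), which encodes smoothelin, to the epithelial gene repressor Zeb1 (0.049) and to Trim26 (0.049). For Tgfbr1 the nearest were Mex3b (0.042), Fermt1 (0.043) and Nav1 (0.049). Each set of 3 was the nearest among 18249 genes searched. How near a match such a search gives for unrelated genes was not tested, nor was shared regulation.

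The other genes of the pathway were counted in 6 lists, holding 94 measured genes. Of these, 38 passed for TGFbeta in Major cells and 42 in Control cells, beside 15.3% and 14.6% of all genes. Without the replicate number in the model, 9 passed in Major cells and 8 in Control cells, beside 1.09% and 1.07% of all genes. Ligands and latency genes had 7 of 17 rises and 1 fall in Major cells, and 9 rises and 1 fall in Control cells. The fall in both was Inhbb, another activin subunit gene, named after its values were seen. Without the replicate number in the model, 2 rose and 0 fell in each line. The median difference of this list was 0.25 in Major cells and 0.45 in Control cells. Inhba, which encodes an activin subunit, rose by 1.46 ± 0.16 in Major cells (limma adjusted p = 0.000415) and by 1.59 ± 0.16 in Control cells (limma adjusted p = 0.000251). Ltbp1, whose protein anchors latent TGFbeta in the matrix, rose by 0.89 ± 0.09 in Major cells and by 1.01 ± 0.09 in Control cells. The proprotein convertase gene Furin, whose product cleaves the TGFbeta precursor, rose by 0.74 ± 0.09 in Major cells and by 0.79 ± 0.09 in Control cells. Lrrc32, which encodes the latent TGFbeta docking protein GARP, rose by 0.74 ± 0.09 in Control cells, and its difference in Major cells was 0.17 ± 0.09 (limma adjusted p = 0.275).

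Among 19 other receptors and receptor regulators, 4 rose in each line, and 2 fell in Major cells and 1 in Control cells. Of all genes, 15.3% passed in Major cells and 14.6% in Control cells. Without the replicate number in the model, 1 rose and 0 fell in each line. In that model 1.09% of all genes passed in Major cells and 1.07% in Control cells. Ldlrad4, a relative of Pmepa1 whose protein also keeps SMAD2 and SMAD3 from the receptor, rose by 1.98 ± 0.11 in Major cells (limma adjusted p = 1.98e-05) and by 2.12 ± 0.11 in Control cells (limma adjusted p = 1.39e-05). Acvr1, a type I receptor for BMPs, rose by 1.15 ± 0.11 in Major cells and by 1.24 ± 0.11 in Control cells, and the type II receptor gene Bmpr2 by 0.65 ± 0.10 in Major cells and by 0.95 ± 0.10 in Control cells. The co-receptor gene Eng was the other rise, and Cav1 (caveolin 1) fell by 0.53 ± 0.09 in Major cells and by 0.35 ± 0.09 in Control cells, with Acvr2a as the second fall in Major cells. Eng and Acvr2a were chosen after their values were seen.

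Of 13 BMP Smads, adaptors and nuclear partners, 0 rose and 1 fell in Major cells, where 15.3% of all genes passed, and 2 rose and 1 fell in Control cells, where 14.6% passed. None of the 13 passed without the replicate number in the model, nor did any of the nuclear repressors that follow. In that model 1.09% of all genes passed in Major cells and 1.07% in Control cells. The fall in both was Xpo4, an exportin gene (-0.48 ± 0.08 in Major cells and -0.40 ± 0.08 in Control cells). Trim33, a ubiquitin ligase that binds SMAD4, and the BMP Smad gene Smad5 each rose by 0.35 in Control cells, with differences of 0.20 ± 0.08 and 0.15 ± 0.09 in Major cells that did not pass. Among the 12 measured other nuclear repressors, 2 rose in each line, and 1 fell in Major cells and 0 in Control cells. Tgif1, a homeodomain repressor of Smad targets, rose by 0.50 ± 0.08 in Major cells and by 0.58 ± 0.08 in Control cells, and Mecom by 0.52 ± 0.10 in Major cells and by 0.58 ± 0.10 in Control cells. The fall was Tob1 (-0.37 ± 0.09 in Major cells).

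Of 15 measured ubiquitin enzymes of Smads and receptors, 1 rose and 2 fell in Major cells, where 15.3% of all genes passed, and 3 rose and 2 fell in Control cells, where 14.6% passed. Without the replicate number in the model, 1 fell in Major cells and 0 passed in Control cells, beside 1.09% and 1.07% of all genes. Smurf1, a ligase that SMAD7 carries to the receptor, rose by 0.57 ± 0.13 in Major cells (limma adjusted p = 0.0168) and by 0.70 ± 0.13 in Control cells (limma adjusted p = 0.0063). Its relative Smurf2 rose by 0.50 ± 0.09 in Control cells, and its difference in Major cells was 0.27 ± 0.09 (limma adjusted p = 0.0814). Wwp2 rose by 0.38 ± 0.08 in Control cells, with 0.24 ± 0.08 in Major cells (limma adjusted p = 0.0826). Nedd4l, a ligase that marks activated SMAD2 and SMAD3 for degradation, fell by 1.50 ± 0.17 in Major cells (limma adjusted p = 0.00058) and by 1.27 ± 0.17 in Control cells (limma adjusted p = 0.00137). The other fall in both lines was Uchl5, a deubiquitinase, named after its values were seen.

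Of 18 measured early target genes, 13 rose and 4 fell in each line, with median differences of 0.85 in Major cells and 0.80 in Control cells. Of all genes, 15.3% passed in Major cells and 14.6% in Control cells. Without the replicate number in the model, 4 rose and 1 fell in each line. In that model 1.09% of all genes passed in Major cells and 1.07% in Control cells. Spsb1 rose by 1.95 ± 0.09 in Major cells and by 2.19 ± 0.09 in Control cells. Among the others, Bhlhe40 rose by 1.85 ± 0.10 in Major cells and by 1.77 ± 0.10 in Control cells, Rhob by 1.46 ± 0.08 in Major cells and by 1.95 ± 0.08 in Control cells, and Il11 by 1.67 ± 0.12 in Major cells and by 1.92 ± 0.12 in Control cells. The falls were Id1, Id2, Id3 and Myc, chosen after their values were seen. No gene of the 94 measured in these lists passed in a comparison between vectors or between responses.

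**Figure D4:**
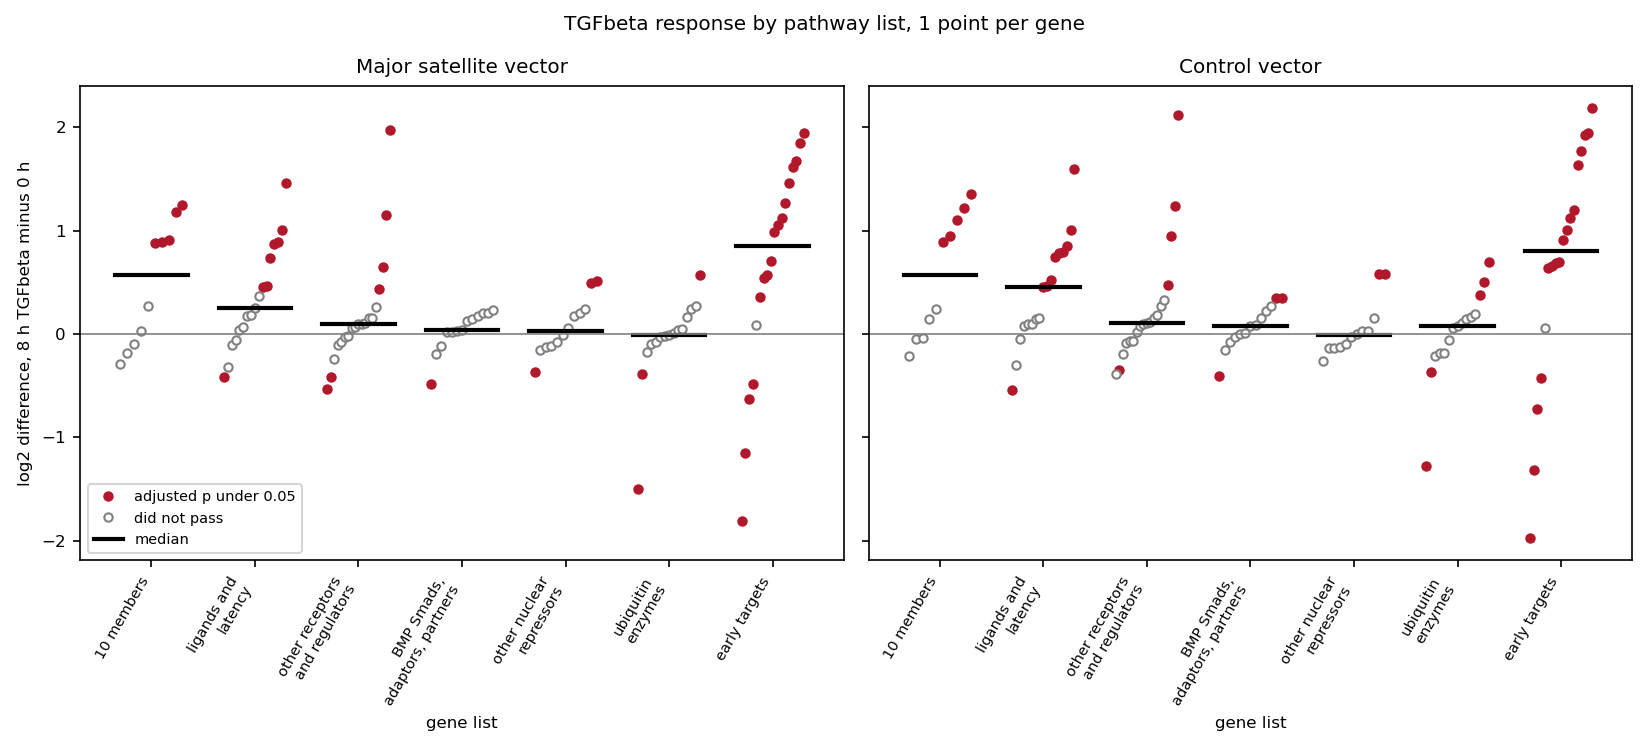
Log2 difference of 8 h TGFbeta minus 0 h for the 10 members and the 6 other pathway lists, 1 point per gene, with Major cells on the left and Control cells on the right. Red points had an adjusted p under 0.05, open points did not pass and bars are list medians: the members split into a group of 5 filled points between 0.88 and 1.36 and 5 open points between -0.29 and 0.27.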

How the data were processed

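RNA was measured on 8 Affymetrix arrays, 2 in each of 4 groups. The authors deposited log2 expression values per probeset in 1 table, and the submitters' processing notes name RMA and limma without versions or roles. Genome build and further steps are not given in the sources used here, and depth does not apply: the number of arrays limits the precision. Of 34760 probesets, 21640 had 1 gene symbol in the probe table, 1321 had several and 11799 had no symbol there or were not in it. Symbols were updated through RefSeq (19855 genes matched, 82 kept the table's name), and a gene with several probesets (954 genes) was represented by the one with the highest mean, which left 19937 genes. Each member had 1 probeset.

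The linear model (limma 3.58.1 under R 4.3.3) took these log2 values as they were deposited and held a mean for each group plus the replicate number as an additive term (3 residual degrees of freedom), with eBayes moderation and Benjamini-Hochberg adjustment. The number is the code shared by titles of 1 array per group. Deviations from group means, across genes, correlated at 0.758 to 0.874 between all 6 pairs of groups, and the code is the only source of the pairing. The script was tested on simulated data. The alternatives were a model without the number, quantile normalization, median centring, the mean of a gene's probesets, leaving out genes under the 25th percentile of mean level, eBayes with trend and robust settings, and leaving out each array.

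The members and pathway lists were chosen with earlier results of these data known. In each list up to 4 genes that passed in a TGFbeta comparison were named, those with the smallest p over both lines, and others are said to have been chosen after their values were seen. Predicted loci and small RNA genes were left out of the search for alike genes. Of the 98 listed genes other than members, 94 were measured and the others were not analysed here.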

Additional observations from a re-analysis of the deposited data

How the results depend on the processing

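Each member's difference in each of the 6 comparisons was recomputed under 14 alternatives, 840 values in all, of which 790 kept their direction and their side of the threshold. The 5 members that rose in each line passed under every alternative but the model without the replicate number, in which 2 of 10 members (Smad7 and Ski) passed in each line. In that model without the replicate block, 218 genes of the array passed for TGFbeta in Major cells, 214 in Control cells, 1 for Major minus Control with TGFbeta, 1 untreated and 2 over both times; the 6 lost calls were those of Tgfbr1, Skil and Pmepa1 in both lines. The 2 gained calls were those of Tgfbr2 in Major cells given above. For Major minus Control untreated, 3 genes passed with quantile normalization and 1 with trend and robust settings. Median centring turned Smad2 to 0.011 and Smad7 to 0.019 there. The causes of these changes were not tested.

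Leaving out 1 array at a time left 5 members passing for TGFbeta in each line and 0 in every other comparison. Where a left-out array leaves a group with 1, that array is assumed to vary like the other groups. Genes of the array that passed ranged from 1228 to 3020 for TGFbeta in Major cells (1690 without the number 1 and 1228 without the number 2 untreated array, 1429 without the number 2 TGFbeta array) and from 1202 to 3161 in Control cells (1902 without the number 1 and 1202 without the number 2 TGFbeta array, 1240 without the number 2 untreated array). They ranged from 1 to 107 for Major minus Control with TGFbeta, 2 to 9 untreated, 8 to 49 over both times and 0 to 17 for the difference of responses, each highest value but that for untreated cells (9, without the number 1 Control array) being the one without the number 1 array of Major cells with TGFbeta. The sign of a member's difference changed in 40 of these values, none of a called difference. For TGFbeta in Major cells, these were Smad4 -0.10 to 0.15 and Smad6 -0.21 to 0.015. For TGFbeta in Control cells, these were Smad2 -0.21 to 0.14 and Smad6 -0.21 to 0.11. For Major minus Control with TGFbeta, these were Tgfbr1 -0.23 to 0.027, Smad3 -0.23 to 0.019, Smad6 -0.29 to 0.027 and Smad7 -0.19 to 0.10. For Major minus Control untreated, these were Tgfbr1 -0.088 to 0.015, Tgfbr2 -0.10 to 0.045, Smad2 -0.19 to 0.17, Smad6 -0.19 to 0.032, Smad7 -0.14 to 0.13, Ski -0.14 to 0.032, Skil -0.19 to 0.025 and Pmepa1 -0.27 to 0.031. For Major minus Control over both times, these were Smad2 -0.17 to 0.0028 and Smad7 -0.094 to 0.046. For the difference of responses, these were Tgfbr1 -0.20 to 0.064, Tgfbr2 -0.17 to 0.012, Smad2 -0.33 to 0.027, Smad3 -0.10 to 0.15, Smad4 -0.25 to 0.0082, Smad6 -0.21 to 0.11, Smad7 -0.18 to 0.10 and Pmepa1 -0.15 to 0.15.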
